A study of Mus musculus with 8 samples.

Results

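The Sox, Pax, Lhx, Tbx, Dlx, Irx, Fox (Foxa to Foxl), Nkx, sine oculis homeobox and Gata4 to Gata6 genes encode transcription factors that pattern organs in the embryo, and they were examined here in blood progenitor cells carrying or lacking Pcgf1. Members were all gene symbols of these families with a numbered name found in both deposited expression tables, leaving out the B cell factor Pax5, whatever their values. There were 108 members among 23284 symbols, namely 26 Fox, 19 Sox, 13 Tbx, 13 Nkx, 8 Lhx, 8 Pax, 6 Dlx, 6 Irx, 6 sine oculis homeobox and 3 Gata genes.

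PCGF1 is a subunit of a variant form of Polycomb repressive complex 1, in which KDM2B binds unmethylated CG-rich DNA and RING1A or RING1B place ubiquitin on histone H2A. Polycomb repressive complex 2 adds the repressive mark H3K27me3 at many of the same promoters. Genes for developmental transcription factors are among the best known Polycomb targets, and most of them are not transcribed in blood cells. The comparison of cells with and without Pcgf1 therefore asked which of these silent genes gained reads.

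Poly(A) RNA was sequenced in 8 libraries, 4 for each of 2 mouse cell types. IdHPCs are multipotent progenitors held in an undifferentiated state by a virus carrying human ID3, and they were grown on TSt-4 stromal feeder cells with IL-7, SCF and Flt3 ligand. The control group was labelled Pcgf1 fl/fl (2 libraries), in which loxP sites flank Pcgf1, and the other group Pcgf1 -/- (2 libraries, here Pcgf1-KO), in which a tamoxifen-activated Cre (ERT2-Cre, whose promoter is not given in the sources used here) removes exons 2 to 7 after 4 days of 4-hydroxytamoxifen (4-OHT). LMPPs are lymphoid-primed multipotent progenitors that were sorted from bone marrow. Their control libraries (2) came from Pcgf1 fl/fl mice without Cre and their Pcgf1-KO libraries (2) from ERT2-Cre:Pcgf1 fl/fl mice, and all LMPPs were kept for 4 days in culture with 4-OHT. The labels give the strain B6CBAF1/J, passage 15-18 and growth on TSt4 stroma for all 8 libraries, and the study used female mice 6 to 8 weeks old. Control IdHPCs in another experiment of the study were ERT2-Cre:Pcgf1 fl/fl cells given ethanol, and the control treatment for these libraries is not given in the sources used here. The study describes its duplicate RNA-seq libraries as biologically independent, and with 2 a group the p-values rest on a small spread estimate. Libraries held 9618849 to 25302206 reads on distinct exon rows. Values are CPM, reads scaled to a common library total, and 1 read was worth 0.0287 CPM in the deepest library.

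The labelled genotype was first checked on Pcgf1 itself. Exons 2 to 7 held 193 and 173 reads in the control IdHPCs against 15 and 15 in the Pcgf1-KO IdHPCs. Among LMPP libraries the same exons carried 84 reads in control 1, 76 in Pcgf1-KO 1 and 0 in each of control 2 and Pcgf1-KO 2, named by their labels. The LMPP reads therefore go against the label of control 2 and of Pcgf1-KO 1. LMPP libraries were compared by label, and again by these exon reads, with Pcgf1-KO 2 and control 2 (no reads) set against control 1 and Pcgf1-KO 1 (reads). The second division coincides with the labelled replicate number, so loss of Pcgf1 exons cannot be told apart from anything else that differed between replicate numbers 1 and 2, and Pcgf1 is no finding in it.

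The progenitor markers Flt3, Cd34, Kit and Ptprc were present in all 8 libraries, with Flt3 between 366 and 631 CPM. In LMPPs the progenitor marker Ly6a (Sca-1) was lower without Pcgf1 exon reads, with 14.7 and 14.7 against 4.14 and 2.80 CPM (limma adjusted p = 0.0001), and Kit was higher, with 228 and 258 against 384 and 352 CPM (limma adjusted p = 0.0013). In IdHPCs none of the 6 progenitor markers was called, but Cd34 had 108 and 105 against 247 and 177 CPM (limma adjusted p = 0.086), Ly6a 44.3 and 34.4 against 76.7 and 67.7 CPM (0.114) and Ptprc 258 and 327 against 218 and 159 CPM (0.248) in control and Pcgf1-KO libraries. Transcripts of stromal markers were present in IdHPCs, where Col1a1, the main fibrillar collagen of fibroblasts, lay at 1131 and 1100 CPM in controls against 2185 and 2386 CPM in Pcgf1-KO libraries. In LMPPs Col1a1 was at most 0.230 CPM. LMPP libraries held myeloid transcripts, with 9 myeloid markers summing to 2271 to 2679 CPM, most of it Mpo, the myeloperoxidase of granulocyte precursors.

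The upstream sequences of 4 members are shown because these genes were higher in both LMPP libraries without Pcgf1 exon reads and because CG dinucleotides are what KDM2B binds. Each run is the 250 bases before the gene's start, 5′ to 3′ on the gene's own strand, with CG in capitals. The starts are RefSeq's (table of GRCm38.p6), and each sequence was found exactly once in the mm9 genome at the coordinates given. Nkx2-3 lies at chr19:43686815-43690381 on the plus strand, Foxd2 at chr4:114578885-114581503 on the minus strand, Sox12 at chr2:152219347-152223782 on the minus strand and Six5 at chr7:19679893-19683694 on the plus strand, and no other annotated gene shares their exons.
Nkx2-3, chr19:43686565-43686814: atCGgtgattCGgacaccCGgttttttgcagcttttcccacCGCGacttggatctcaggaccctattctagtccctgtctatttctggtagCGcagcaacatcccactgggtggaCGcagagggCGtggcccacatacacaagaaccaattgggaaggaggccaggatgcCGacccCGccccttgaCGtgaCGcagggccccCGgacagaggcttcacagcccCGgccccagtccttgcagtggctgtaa
Foxd2, chr4:114581504-114581753: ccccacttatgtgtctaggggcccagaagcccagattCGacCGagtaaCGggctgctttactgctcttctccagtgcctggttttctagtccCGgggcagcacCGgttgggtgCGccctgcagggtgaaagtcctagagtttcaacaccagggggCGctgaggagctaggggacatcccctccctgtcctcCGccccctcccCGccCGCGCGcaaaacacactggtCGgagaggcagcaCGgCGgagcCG
Sox12, chr2:152223783-152224032: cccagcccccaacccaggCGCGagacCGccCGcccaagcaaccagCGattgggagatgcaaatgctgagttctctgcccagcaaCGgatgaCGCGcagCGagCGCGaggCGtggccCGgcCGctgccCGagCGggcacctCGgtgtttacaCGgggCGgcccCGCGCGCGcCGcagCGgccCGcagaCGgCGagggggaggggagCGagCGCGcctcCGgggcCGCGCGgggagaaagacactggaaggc
Six5, chr7:19679643-19679892: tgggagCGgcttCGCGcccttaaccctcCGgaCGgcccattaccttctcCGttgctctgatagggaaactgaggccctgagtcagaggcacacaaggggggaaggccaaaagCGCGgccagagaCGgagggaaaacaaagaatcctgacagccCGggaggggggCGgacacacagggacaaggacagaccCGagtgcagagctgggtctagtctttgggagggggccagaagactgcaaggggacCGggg
The windows held 14 CG in Nkx2-3, 16 in Foxd2, 35 in Sox12 and 13 in Six5. CG reads the same on both strands, so each match was counted once. Over all 32851 RefSeq starts with such a window, 92.1% held at least 1 CG, the median was 6 and the quartiles were 2 and 16. At least 16 CG, as in Foxd2, were found in 25.4% of all windows, and at least 35, as in Sox12, in 2.97%. Members that did not pass the test in LMPPs held 48 (Foxk2), 36 (Foxj2), 34 (Foxj3), 31 (Sox13), 26 (Nkx6-2), 11 (Sox4) and 6 (Tbx6) CG, so the number of CG did not separate them. Sox6 (chr7:122614858-123182258, minus strand) has 6 starts in the table, with 1 to 10 CG. No window is shown for it because the reads do not tell which start was used.

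Most members had no or nearly no reads in either cell type. In IdHPCs, 42 members had 0 reads in every library and 61 had at most 3 reads in every library. A further 16 exceeded 3 reads somewhere but stayed below 1 CPM, and 31 reached 1 CPM in at least 1 library (28.7% of members, against 52.7% of all symbols). In LMPPs, 40 members had 0 reads in every library, 83 had at most 3 reads in every library, 12 lay between and 13 reached 1 CPM (12.04% of members, against 52.2% of all symbols). Both cell types shared 53 members with at most 3 reads in each library, and 20 members had 0 reads in all 8 libraries. These were Foxb2, Foxe3, Foxi1, Foxi3, Gata6, Irx4, Irx6, Lhx1, Lhx3, Lhx4, Lhx8, Nkx1-2, Nkx2-6, Pax1, Pax2, Pax3, Pax4, Sox1, Sox14 and Sox17. Among them are Gata6 and Sox17, factors of endoderm, and Pax3, a factor of neural crest and muscle precursors. A count of 0 allows up to 3 reads, or 0.0860 to 0.227 CPM across the libraries, counting error only. In bulk RNA, fewer cells expressing a gene and less RNA per cell cannot be told apart.

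By the mean over the 4 libraries, the 3 members with the most RNA per length were the same in both cell types. On the scale of CPM per kb of annotated exon, Sox4, a factor that B cell precursors need, came first with 59.4 and 50.1 in control IdHPCs and 66.7 and 69.9 in Pcgf1-KO IdHPCs, and with 49.2 to 52.1 in the LMPP libraries. The forkhead factors Foxk2 and Foxk1, which act in metabolism in most tissues, followed. Foxk2 had 7.43 to 14.8 CPM per kb in IdHPCs and 8.84 to 10.99 in LMPPs, and Foxk1 had 3.24 to 7.16 and 7.07 to 9.02. Foxk2 lay above Foxk1 in each of the 8 libraries. The order below Sox4 did not hold in every library, since Sox12 (10.65 and 9.74 CPM per kb) lay above both in the LMPP libraries control 2 and Pcgf1-KO 2, and Tbx2 (8.23) above both in the IdHPC library Pcgf1-KO 2. The tables were normalised separately, so levels are not compared between cell types by a test. Exons of Sox4 overlap an antisense gene over 2616 bp and the libraries were not strand-specific, so part of its reads could belong to that gene.

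No silent member gained reads at a floor of 3 reads, where few would be due at the shares over all symbols. A member was called silent if each of the libraries on the side with Pcgf1 held at most 3 reads, and gaining if both libraries on the other side held more than 3. In IdHPCs 61 members were silent in the controls and 0 of them gained, against 1.03% of all silent symbols (93 of 9057). In the opposite direction 66 members were silent in Pcgf1-KO libraries and 0 had more than 3 reads in both controls (all symbols, 1.46%). The 61 silent members drew 18 and 11 reads from control libraries against 23 and 22 from Pcgf1-KO ones, or 0.551 and 0.315 against 0.808 and 1.04 CPM for the whole set. In LMPPs compared by exon reads, 88 members were silent in control 1 and Pcgf1-KO 1, and 0 gained reads in control 2 and Pcgf1-KO 2 (all symbols, 1.57%). Their summed reads were 35 and 45 in the libraries with exon reads against 55 and 44 in those without. In the opposite direction 88 members were silent and 0 were lost (all symbols, 1.27%). By label, 89 members were silent in the LMPP controls and 0 gained (all symbols, 0.371%), and of 87 silent under the label Pcgf1-KO 0 were lost (all symbols, 0.531%). With shares this small over all symbols, 0 among 61 to 89 members does not set the members apart. In IdHPCs 3 reads were worth 0.0918 and 0.0860 CPM in controls and 0.105 and 0.141 CPM in Pcgf1-KO libraries. A gain there needed more CPM than a loss.

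**Figure D1:**
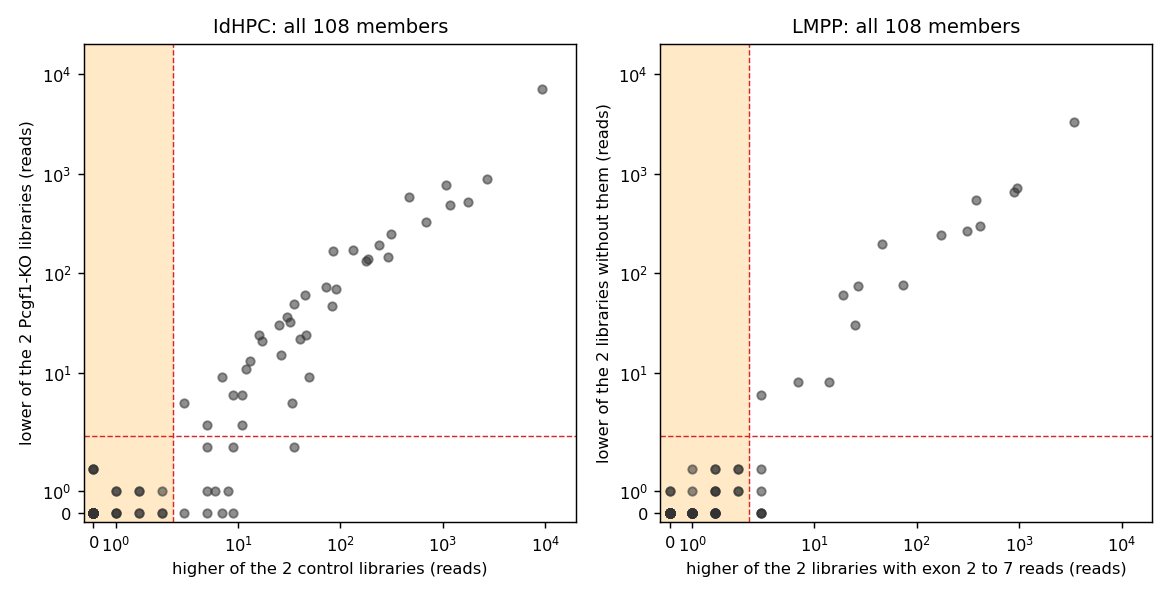
Reads of all 108 members on both sides of the comparison, for IdHPCs (left) and LMPPs divided by reads on Pcgf1 exons 2 to 7 (right), 1 point per member. The horizontal axis gives the higher of the 2 libraries on the side with Pcgf1 and the vertical axis the lower of the 2 on the other side, in reads, on axes that are linear up to 5 and logarithmic above. Dashed lines separate 3 from 4 reads, and the shaded field above the dashed line, where a silent member that gains reads would lie, is empty in both panels.

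At a stricter floor the members nearest to the line can be named. With 0 reads in both controls and at least 1 read in both Pcgf1-KO IdHPCs, 3 of 49 members would count as gained (all symbols, 1.54%), namely Foxl2, a factor of the ovary, Pax6, a factor of eye and brain, and Sox5, a factor of cartilage and of some B cells. Each had at most 3 reads in any IdHPC library, and exons of Pax6 and Sox5 overlap those of genes on the opposite strand over 5542 and 1330 bp. Among members with more than 3 reads and less than 1 CPM, Pax8 had 7 and 0 control reads against 14 and 9 in Pcgf1-KO libraries, Foxl1 had 2 and 4 against 8 and 5, and Lhx9 had 1 and 7 against 6 and 0. These counts were too low to test. Lhx2, a factor of forebrain and early blood progenitors, had 10 reads in the LMPP library labelled control 2 and 1 or 2 in each of the other LMPP libraries, so it was high in 1 library only.

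In LMPPs 5 members rose in the libraries without Pcgf1 exon reads, and all of them already had reads where the exons were present. They were Nkx2-3, a homeobox factor of gut and spleen mesenchyme, Sox6, a factor of cartilage and red cell precursors, Foxd2, a forkhead factor of kidney mesenchyme, Sox12, a relative of Sox4, and Six5, a homeobox factor beside the myotonic dystrophy locus. Of 13 members tested, 5 were higher and 0 lower (limma on log2(CPM + 1), Benjamini-Hochberg over 12153 genes, 0.05). Over all genes tested 10.1% were higher and 7.08% lower, and the median log2 fold change of the 13 members was 0.29. All 13 reached 1 CPM on both sides.

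Nkx2-3 had 3.24 and 3.16 CPM (44 and 46 reads) in control 1 and Pcgf1-KO 1, and 12.2 and 15.0 CPM (212 and 198 reads) in control 2 and Pcgf1-KO 2. Its log2 fold change was 1.79 (SE 0.16, limma adjusted p = 0.0001) and its mean CPM was 4.25 times as high. The libraries without exon reads lay above those with them, with no overlap. Nkx2-3 had 0 reads in all 4 IdHPC libraries.

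Sox6 had 0.737 and 1.30 CPM (10 and 19 reads) with exon reads and 5.29 and 4.54 CPM (92 and 60 reads) without. Its log2 fold change was 1.56 (SE 0.20, limma adjusted p = 0.0007), with a ratio of mean CPM of 4.82. The rise was seen in the first listed exon row, the 3′ end of the gene, with 6 and 11 against 72 and 39 reads, and in the remaining rows together, with 4 and 8 against 20 and 21. In IdHPCs Sox6 was near 0, with 3 and 1 control reads and 2 and 1 Pcgf1-KO reads.

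Foxd2 had 1.99 and 1.78 CPM (27 and 26 reads) against 6.85 and 5.68 CPM (119 and 75 reads), a log2 fold change of 1.33 (SE 0.17, limma adjusted p = 0.0007). The groups did not overlap. Control IdHPCs had 2.79 and 2.18 CPM and Pcgf1-KO IdHPCs 3.13 and 3.25 CPM, a log2 difference of 0.27 (SE 0.29, limma adjusted p = 0.698).

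Sox12 and Six5 rose by less than 2-fold in mean CPM. Sox12 had 21.2 and 25.7 CPM against 44.4 and 40.7 CPM (log2 fold change 0.84, SE 0.12, limma adjusted p = 0.0010). Six5 had 11.1 and 11.9 CPM against 19.6 and 18.4 CPM (log2 fold change 0.68, SE 0.12, limma adjusted p = 0.0037). Neither gene's groups overlapped. Sox12 had 6.40 and 8.85 CPM in control against 12.4 and 11.5 CPM in Pcgf1-KO IdHPCs (0.60, SE 0.28, limma adjusted p = 0.355), and Six5 had 5.48 and 8.40 against 5.13 and 6.87 CPM (-0.17, SE 0.30, limma adjusted p = 0.835).

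The other 8 members tested in LMPPs did not pass. Sox4 had 236 and 237 CPM with exon reads and 240 and 250 CPM without (log2 difference 0.05, SE 0.07, limma adjusted p = 0.690). Differences were -0.13 for Foxk2, -0.12 for Foxj3, 0.03 for Foxk1, 0.10 for Nkx6-2, 0.27 for Sox13, 0.29 for Tbx6, a factor of early mesoderm, and 0.31 for Foxj2. Counting libraries that do not overlap, 8 of the 13 were higher without exon reads and 0 lower, against 26.7% higher and 29.9% lower over all genes. Exons of Sox4, Nkx6-2, Foxj2 and Foxk2 overlap those of neighbouring genes, whose reads could be counted with theirs.

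**Figure D2:**
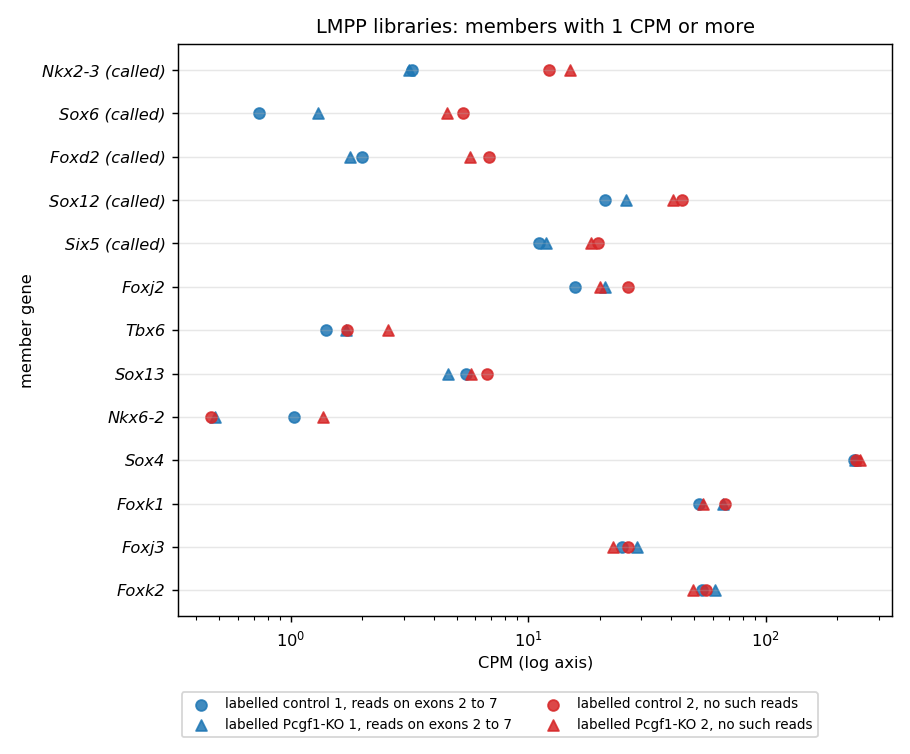
CPM (log axis) of the 13 members tested in LMPPs, 1 row per gene and 1 symbol per library, ordered by log2 fold change. Circles are libraries labelled control and triangles libraries labelled Pcgf1-KO, blue those with and red those without reads on Pcgf1 exons 2 to 7. The red symbols lie to the right of the blue ones for Nkx2-3, Sox6, Foxd2, Sox12 and Six5, whichever label they carry.

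By the labels, no member changed in LMPPs. Of 13 tested, 0 were called higher and 0 lower by limma (all genes 0.0% in each direction), differences ranged from -0.20 to 0.28 and the groups overlapped in all 13 (all genes, 5.92% not overlapping and higher, 6.3% lower). At an unadjusted p under 0.05 limma gave 0 members and 2 genes in all (0.0165%), and edgeR's quasi-likelihood and exact tests and DESeq2 called 0 genes. Nkx2-3 shows the overlap, with 3.24 and 12.2 CPM under the control label against 3.16 and 15.0 CPM under the Pcgf1-KO label.

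The study's list C1, genes bound by PCGF1 and RING1B and carrying H3K27me3 in IdHPCs, holds 14 members: Dlx4, Foxa1, Foxc1, Foxd4, Foxl2, Irx5, Lhx1, Lhx2, Lhx9, Nkx2-3, Pax2, Six5, Sox12 and Sox6. The list was made from binding and mark in IdHPCs, not in LMPPs. Of these, 4 were tested in LMPPs and all 4 were higher without exon reads, and of 9 tested members outside C1 1 was (Foxd2), against 10.1% of all genes. The difference between the 2 sets was not tested. Among the C1 genes that are no members, 100 of 279 tested were higher and 19 lower (all genes, 10.1% and 7.08%), with a median log2 fold change of 0.34. The 10 remaining C1 members had at most 10 reads in any LMPP library. The summed CPM of all 14 was 36.9 and 42.5 with exon reads and 82.6 and 79.0 without. List C2, bound genes without the mark, holds Nkx1-2, which had 0 reads throughout, and Sox4.

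Myeloid markers moved in the opposite direction in the same libraries. Of 8 tested, 5 were lower and 0 higher without exon reads, among them Csf1r, the receptor for macrophage colony-stimulating factor, with 114 and 118 against 52.9 and 49.2 CPM. The shares over all genes, to set beside this and each list below, were 7.08% lower and 10.1% higher. The summed CPM of the 9 markers was 2679 and 2644 against 2271 and 2340, and Mpo itself differed by -0.08 (limma adjusted p = 0.584). Stromal feeder markers summed to 99.0 and 103 against 117 and 99.2 CPM, and of 24 markers 13 to 16 had at most 3 reads per library, with Dcn, Lum, Col3a1 and Postn at 0 in all 4. Of 7 feeder markers tested, 1 was higher and 2 were lower. Of 2 erythroid markers tested Epor, the erythropoietin receptor, was higher, with 0.295 and 0.892 against 2.01 and 2.88 CPM (limma adjusted p = 0.011), and the 6 listed summed to 1.99 and 3.43 against 4.72 and 7.19 CPM. Both T lineage markers tested, Lck and Thy1, and 1 of 2 B lineage markers tested, Blnk, were lower. Mast cell (3 tested) and endothelial (3 tested) markers had 0 called, and thymic epithelial markers were not tested because none reached 1 CPM. The part of these lists in the rise of the 5 members was not tested.

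Developmental regulators outside the families and the Polycomb subunits were taken as further lists. Of 62 such regulators (Msx, Hand, Gbx and others), 2 were tested in LMPPs and both were higher without exon reads (all genes, 10.1%), 1 of them entering the test through those libraries only. Of these, Gbx2, a factor of the midbrain-hindbrain border, had 5.90 and 7.76 against 12.2 and 10.1 CPM (0.64, limma adjusted p = 0.026). Of 31 Polycomb subunits, 8 were higher and 2 lower by limma, against 10.1% and 7.08% of all genes. Those that rose were Bcorl1 (0.96), Bcor (0.59) and Kdm2b (0.38) of the PCGF1 complex, Pcgf2 (0.82), Cbx7 (0.76) and Phc1 (0.48) of canonical PRC1, and Ezh1 (0.39) and Jarid2 (0.30) of PRC2. Eed of PRC2 fell (-0.44), as did Pcgf1, the gene used to divide the libraries.

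In IdHPCs no member passed the test. Of 31 members tested, limma called 0 higher and 0 lower, where 0.269% of all 12273 genes were higher and 0.261% lower. At an unadjusted p under 0.05, 10 members were higher and 0 lower, against 9.17% and 5.33% of all genes. The log2 fold change was above 0 in 24 of the 31, with a median of 0.60 against 0.0056 over all genes. Pcgf1-KO libraries lay above both controls for 18 members and below them for 1, against 25.6% and 21.3% of all genes. Of the 31, 8 reached 1 CPM only in a Pcgf1-KO library and 1 only in a control, so those 9 entered the test through their high side. The counts above were made over all 31. Without the 8, 16 of 23 members were above 0, with a median of 0.57.

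The members with the largest log2 fold changes described here are known from the mesenchyme of limb, skin, kidney and palate. Tbx15, a T-box factor of skin and bone mesenchyme, had 2.57 and 1.95 CPM in controls against 8.85 and 7.90 CPM in Pcgf1-KO libraries (log2 fold change 1.53, SE 0.28, limma adjusted p = 0.0510). Foxd1, a factor of kidney stroma, had 4.04 and 1.46 against 13.1 and 7.95 CPM (1.67, SE 0.38, limma adjusted p = 0.0826). Both genes were higher in each Pcgf1-KO library than in each control, and both just missed the threshold.

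Foxf2, a factor of gut and palate mesenchyme, had 0.918 and 0.401 against 3.55 and 1.69 CPM (1.09, SE 0.35, limma adjusted p = 0.183). Tbx2, a T-box repressor of limb and heart, had 12.03 and 13.3 against 20.2 and 29.8 CPM (0.91, SE 0.27, limma adjusted p = 0.153). None of these 4 genes had more than 4 reads in an LMPP library.

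Tools differed on these genes. The edgeR exact test, which the study's methods name, called 4 members higher, Foxd1, Foxf2, Tbx15 and Tbx2, at a background of 3.8% of all genes higher and 1.33% lower. DESeq2 called 3 (background 2.8% higher and 1.25% lower) and the edgeR quasi-likelihood test 1, Tbx15 (background 0.627% higher and 0.383% lower). Without control 2 limma called 0 members (0.115% of all genes in either direction) and without control 1 it called 1, Foxd1 (0.547%). Without Pcgf1-KO 1 it called 3, Tbx15 and Tbx2 higher and Foxk1 lower (6.8%), and without Pcgf1-KO 2 it called 2, Foxd1 and Tbx15 (1.89%). In these fits the lone library is assumed to vary like the other group. At the lower end lay Foxk1 (-0.55, SE 0.31), Foxj3 (-0.44, SE 0.23) and Foxk2 (-0.35, SE 0.30), widely expressed forkhead genes, with limma adjusted p of 0.452, 0.429 and 0.615. For Foxk1 control values of 53.3 and 47.9 CPM stood against 48.6 and 24.1 CPM in Pcgf1-KO libraries, so the low value came from Pcgf1-KO 2.

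Markers of the stromal feeders moved in the same direction as these members. The 24 feeder markers summed to 3956 and 3278 CPM in control against 7894 and 6239 CPM in Pcgf1-KO libraries, a ratio of means of 1.95. Of 20 tested, 3 were called higher (limma), 19 had a log2 fold change above 0 and 18 were higher with no overlap, with a median of 0.99, against 0.269% called higher and 25.6% higher with no overlap over all genes. Sparc had 264 and 230 against 680 and 588 CPM (1.36, SE 0.21, limma adjusted p = 0.027). The matrix proteins Dcn and Lum, defining markers of many fibroblasts, were at 0 in all 4 libraries, and Fap had at most 1 read. The 26 members known from mesenchyme summed to 41.3 and 39.2 against 89.7 and 78.3 CPM, a ratio of means of 2.09, and of 14 tested 13 were above 0, with a median of 0.81. Of these 14, Dlx5, Foxf2 and Gata4 entered the test through a Pcgf1-KO library only, and of the other 11, 10 were above 0. The 7 tested members known from blood cells or broadly expressed had a median of -0.12. Of these 7, 3 were higher and 1 lower with no overlap (all genes, 25.6% and 21.3%), and 1 entered through a Pcgf1-KO library only. Nkx2-3, Lhx2, Lhx9, Gata4 and others stand in more than 1 list. In LMPPs divided by exon reads, the 26 mesenchymal members summed to 15.8 and 16.2 against 32.9 and 34.0 CPM, a ratio of means of 2.09. Only Nkx2-3 and Six5 of them were tested there, and the feeder markers had a ratio of 1.07. The part of feeder RNA in the values of the mesenchymal members was not tested, since no library of feeder cells alone was analysed here.

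**Figure D3:**
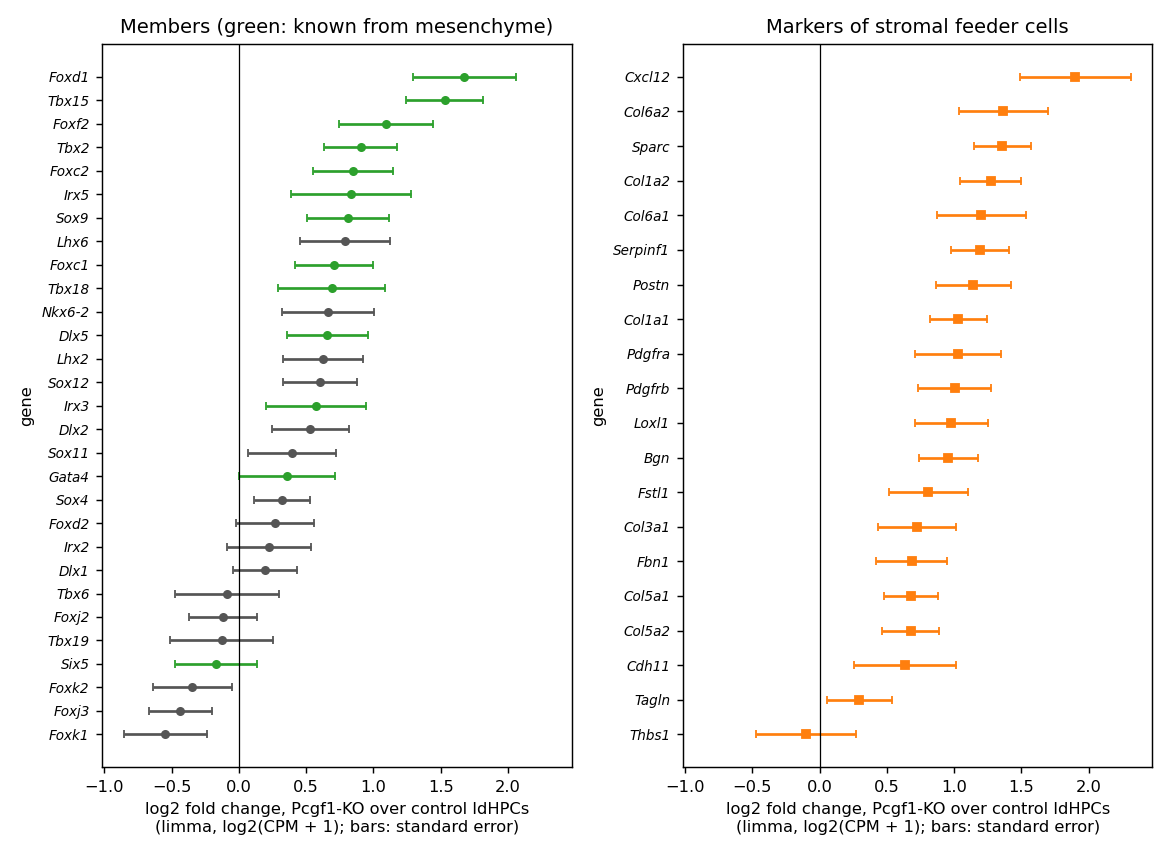
Log2 fold change of Pcgf1-KO over control IdHPCs (horizontal axis, log2(CPM + 1), limma, 2 libraries a group) for 29 of the 31 members tested (left) and 20 markers of stromal feeder cells (right), with bars for the standard error. Green points are members known from mesenchyme, and 12 of the 13 shown lie above 0, as do 19 of the 20 feeder markers.

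Of 33 members known from neural tissue 8 were tested and 0 called, with all 8 above 0 and a median of 0.58, but 5 of the 8 reached 1 CPM in a Pcgf1-KO library only. Among the 8, Dlx1, a factor of forebrain interneurons, had the most RNA per length, with 26.4 and 30.9 control CPM against 29.6 and 36.3 Pcgf1-KO CPM (0.19, SE 0.24, limma adjusted p = 0.744), and it had at most 1 read in LMPPs. Dlx1 shares 335 bp of exon with an antisense gene. Of 11 members known from endoderm 1 was tested, Gata4, again through a Pcgf1-KO library only, whose 31 reads in Pcgf1-KO 1 stood against 5 and 9 in the controls and 3 in Pcgf1-KO 2. Of the 62 regulators outside the families 10 were tested in IdHPCs and 0 called, with 8 not overlapping and higher (all genes, 25.6%) and a median of 0.94, and 3 of the 10 reached 1 CPM in a Pcgf1-KO library only. Among them Prrx1, a factor of limb mesenchyme, had 7.96 and 5.96 against 23.6 and 11.9 CPM, and Twist1 had 3.40 and 1.63 against 8.04 and 6.12 CPM. Of 31 Polycomb subunits 0 were called, with a median of -0.16. With no overlap, 10 were lower and 4 higher (all genes, 21.3% and 25.6%). Pcgf1 itself, summed over all its exons, had 8.14 and 7.22 control CPM against 2.49 and 3.91 Pcgf1-KO CPM and was not called either (-1.07, SE 0.30, limma adjusted p = 0.125).

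C1 members in IdHPCs numbered 5 tested and 0 called, with values of 0.83 for Irx5, 0.71 for Foxc1, 0.63 for Lhx2, 0.60 for Sox12 and -0.17 for Six5, and Lhx2 entered the test through Pcgf1-KO libraries only. Their summed CPM with the other C1 members was 19.9 and 25.6 in controls against 37.3 and 30.0 in Pcgf1-KO libraries. Among C1 genes that are no members 3 of 295 tested were higher and 0 lower (all genes, 0.269% and 0.261%), with a median of 0.41. Of the 5 members that rose in LMPPs without exon reads, Foxd2, Sox12 and Six5 did not pass the test in IdHPCs and Nkx2-3 and Sox6 were too low there to be tested, and the difference between the cell types was not tested because the tables were normalised separately.

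**Figure D4:**
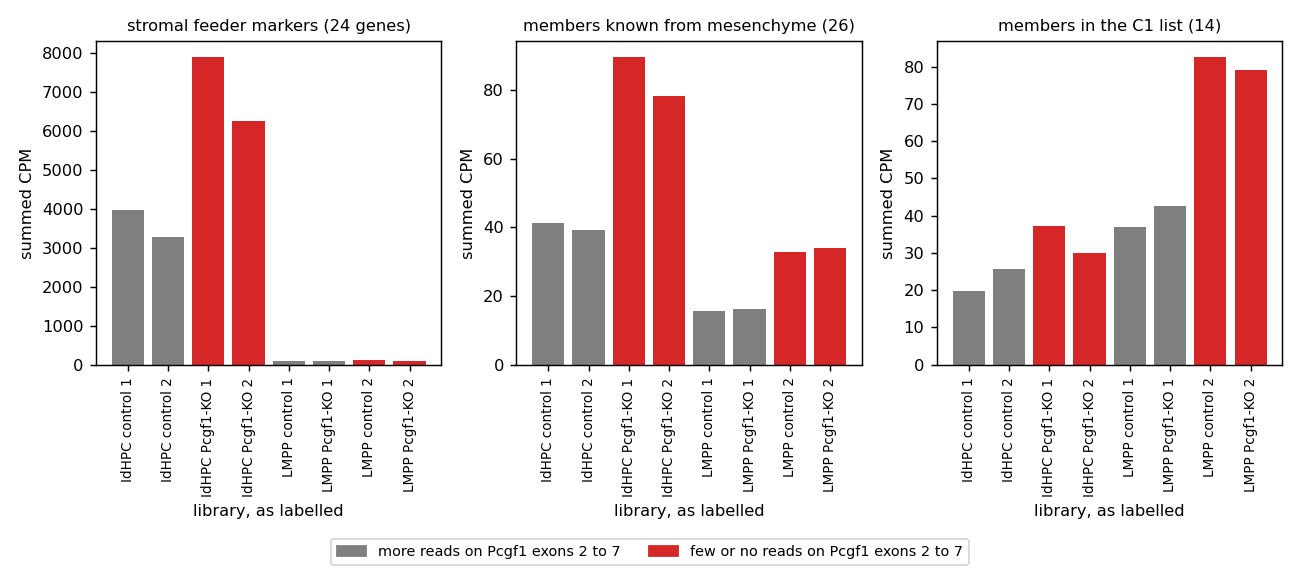
Summed CPM by library (vertical axes, from 0, each panel on its own scale) of 24 stromal feeder markers, 26 members known from mesenchyme and 14 members of the C1 list. Red bars are the libraries with 15 or 0 reads on Pcgf1 exons 2 to 7 and grey bars those with 76 to 193. Feeder markers are high in IdHPCs only and higher in the Pcgf1-KO ones, whereas the C1 members are highest in the 2 LMPP libraries without exon reads. Members known from mesenchyme are higher in the red bars of both cell types.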

How the data were processed

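Libraries were made from poly(A) RNA with a kit that does not mark strand. The authors aligned reads to mm9 (the methods name HISAT2, the submitters' processing notes TopHat2 2.0.13 and edgeR), counted them with Rsubread and deposited CPM values per exon row, 1 table for IdHPCs and 1 for LMPPs. Dividing each column by the CPM of 1 read gave whole reads for 100.0% of values (tolerance 0.001 reads). A row whose reads in all 8 libraries equalled those of the row before under the same symbol was dropped (26.6% of rows with reads) and the rest summed per symbol.

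Each table was fitted alone with limma 3.58.1 in R 4.3.3 (log2(CPM + 1), trend, 2 libraries a group, genes with 1 CPM in at least 1 of 4 libraries), with Benjamini-Hochberg adjustment over all genes tested and a threshold of 0.05. For low genes this scale makes fold changes smaller. edgeR 4.0.16 and DESeq2 1.42.0 on the recovered reads, another pseudocount, filters, floors, scaling, row sums, a replicate block and leaving out each library were alternatives. The script was checked on simulated data. Positions and exon lengths are GENCODE vM1's on mm9, in which 107 of 108 members were matched, and promoter windows RefSeq's, which held 74.

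Members named were those called or gaining reads in any comparison, the 10 with the highest mean CPM in each cell type, the 5 largest rises and falls, and those in C1 or C2. Others named beside them (such as Pax8, Foxl1, Gata4, Dlx5, Pax6, Sox5, Tbx6 and Sox18, and the members at 0) were chosen after their values were seen. The members and lists were chosen with earlier results of these data known. Of the listed markers, Ly6g and Spi1 have no row under those symbols. Intervals and floors cover counting error only. Some members covered by the naming rule are not reported here.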

Additional observations from a re-analysis of the deposited data

How the results depend on the processing

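The 5 members higher in LMPPs without Pcgf1 exon reads kept their direction and stayed under the threshold in all 15 alternatives, with 5 to 6 members called when any 1 library was left out. Their log2 fold changes ranged from 1.65 to 2.097 for Nkx2-3, 1.36 to 2.28 for Sox6, 1.21 to 1.76 for Foxd2, 0.70 to 0.97 for Sox12 and 0.64 to 0.84 for Six5. By label, 0 members were called in every alternative.

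In IdHPCs the count of 0 members called (0.53% of all genes called in either direction) became 1 after rescaling by the median ratio (0.847%), 1 with no mean-variance trend (0.456%), 1 by the edgeR quasi-likelihood test (1.01%), 4 by the edgeR exact test (5.13%), 3 by DESeq2 (4.05%), 2 with the row of highest mean (3.07%) and 5 by the quasi-likelihood test without a filter (4.53%), an alternative chosen after seeing the data. It ranged from 0 to 3 when 1 library was left out. Tbx15 passed in 10 of 16 alternatives (adjusted p 0.00044 to 0.522) and Foxd1 in 7. With the replicate block it was 5, and the genes called in all went from 65 to 669 (5.45%). The replicates share only a number (correlation of deviations 0.15 in IdHPCs and 0.71 in LMPPs by label, where the block called 0 members). In LMPPs divided by exon reads, no paired analysis was possible because each side holds a single replicate number.

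Silent IdHPC members gaining reads numbered 3 at a floor of 0 reads, 1 at 0.2 CPM, 2 with all listed rows summed, and 0 to 3 with 1 library left out. For LMPPs by label they numbered 1 at a floor of 0 reads and 0 to 3 with 1 left out. Divided by exon reads they numbered 2 at a floor of 0 reads, 1 (Sox18) with the row of highest mean, and 0 to 3 with 1 left out.

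Signs turned for members that did not pass. With 1 library left out, IdHPC values ranged from -0.77 to 0.074 for Foxk2 (above 0 without Pcgf1-KO 2), -0.44 to 0.10 for Six5 (above 0 without control 2 or Pcgf1-KO 1) and -0.61 to 0.12 for Tbx19 (above 0 without Pcgf1-KO 1). In LMPPs divided by exon reads they ranged from -0.13 to 0.20 for Foxk1 (below 0 without control 1 or control 2) and -0.25 to 0.45 for Nkx6-2 (below 0 without either Pcgf1-KO library), and Foxk1 was -0.0082 with the row of highest mean. The cause of these changes was not tested. Members with at most 3 reads limit what can be seen, since 3 reads are up to 0.227 CPM.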
